A study of Mus musculus with 6 samples.

Results

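The protein disulfide isomerases and endoplasmic reticulum (ER) oxidases described here are 9 genes, P4hb, Pdia3, Pdia4, Pdia5, Pdia6, Txndc5, Erp29, Erp44 and Ero1lb. They were taken by gene name from the 20673 genes of the deposited tables, and 9 of the 9 were found and had enough counts to be tested. Liver RNA of C57BL/6J mice was sequenced, with 3 livers from mice on a regular diet (RD) and 3 from mice on a high-cholesterol diet (HCD) for 3 days. The HCD held sodium cholate and cocoa butter as well as cholesterol, so the effects of these components cannot be told apart. By the study's methods the mice were of both sexes, and the labels do not give the sex of each liver.

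Disulfide bonds of secreted and membrane proteins are made in the ER. Protein disulfide isomerases pass oxidizing equivalents to client cysteines and rearrange wrong bonds, and the ERO1 oxidases reoxidize the isomerases with oxygen, which yields hydrogen peroxide. Hepatocytes depend on this machinery because albumin and many other plasma proteins carry disulfide bonds. Several of these genes are known targets of the unfolded protein response (UPR), in which the factors ATF6 and XBP1 act on ER stress response elements in promoters.

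The depth was 13771630 to 23129576 counts on genes per liver, and the hepatocyte marker genes summed to 88806 to 118755 CPM with RD and 94983 to 135576 CPM with HCD. CPM are a gene's counts as a share of the library, brought to a common total and scaled with edgeR's TMM factors, which ran from 0.886 to 1.07. A liver differed from others on the same diet by far more than counting error, with an estimated biological coefficient of variation of 27.75%. HCD replicate 1 stood apart. Its counts differed most from the other livers of its diet (chi-square per degree of freedom 157.1 and 118.2, against 30.3 to 65.79 for the other same-diet pairs). Xist, an RNA of the inactive X chromosome in female cells, had 5032 counts in that liver and 0 in the other 5. The Y-linked genes Ddx3y, Uty, Kdm5d and Eif2s3y had 0 counts in it and 65 to 1229 counts in each of the others, so the RD livers carry male transcripts only and HCD replicate 1 alone carries the female one. The part of sex in the values of that liver cannot be told apart from the rest of what sets it apart, and results that rest on it are given with and without it. The deposited library names begin with A for every RD liver and with Liver for every HCD liver, and the labels do not say what these names stand for. Any difference that goes with the names cannot be told apart from diet. Otherwise the labels say only that these are separate livers, and p-values measure the spread between them. In bulk liver, fewer cells of a type and less RNA per cell cannot be told apart.

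With HCD, 2 of the 9 genes fell, Pdia4 to 45.8% and Pdia5 to 54.9% of the RD level. None of the 9 rose. Genes counted as called had an adjusted p under 0.05 in edgeR's quasi-likelihood test across 13105 genes, where 1.32% were called lower and 1.95% higher. At an unadjusted p under 0.05 the counts were the same, 2 lower and 0 higher, against 9.81% and 11.1% of all genes tested, and DESeq2 called 2 lower and 0 higher, against 3.09% of genes lower. The log2 fold change (HCD over RD) was below 0 for 8 of the 9, against 49.3% of all genes, and the median was -0.31, against 0.0074 over all genes tested. Without HCD replicate 1 the median was -0.026 and P4hb, Txndc5, Erp29 and Erp44 were above 0, and without RD replicate 2 the median was -0.045. The paper names some of these genes from the same livers, so the counts are no independent evidence of direction.

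**Figure D1:**
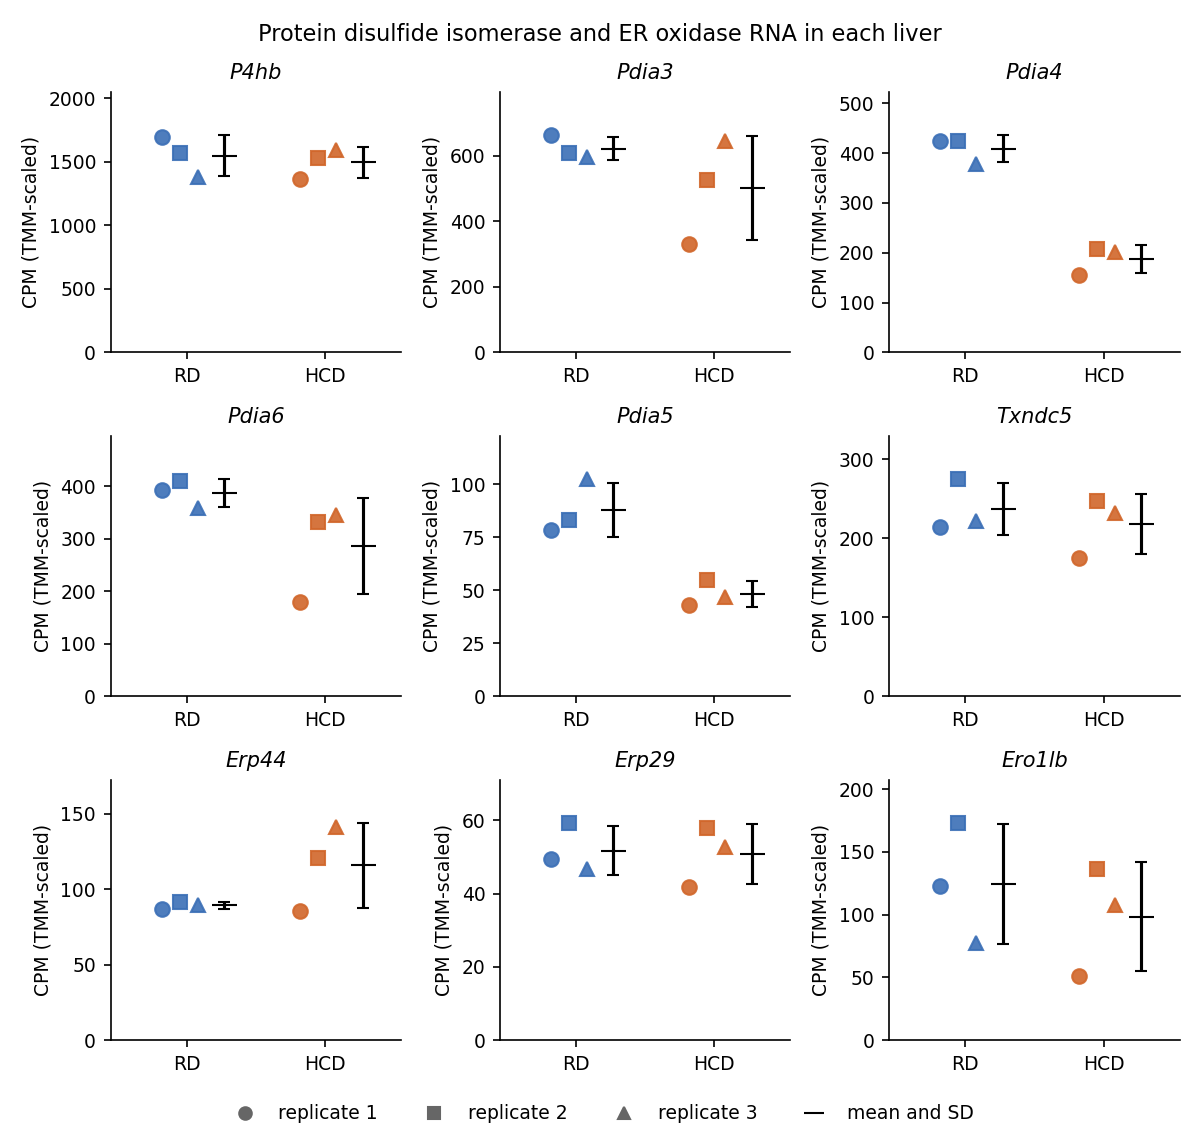
TMM-scaled CPM of the 9 genes in each liver, with RD in blue and HCD in orange, the replicate number shown by the marker, and the mean and SD of 3 livers beside the points. The vertical axes start at 0 and differ between panels. Pdia4, Pdia5 and Pdia6 are the panels where the HCD points lie below every RD point.

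Pdia4 encodes an isomerase with several thioredoxin-like domains that is found with the chaperone encoded by Hspa5. The gene (ENSMUSG00000025823) lies on the minus strand of chromosome 6, from 47796141 to 47813430 on GRCm38. Its RNA was 423, 425 and 379 CPM in the 3 RD livers and 155, 207 and 201 CPM in the 3 HCD livers. Every HCD liver was below every RD liver, and the lowest RD value was well above the highest HCD value. The mean was 409 ± 26.4 CPM (SD, n = 3) with RD and 187 ± 28.6 CPM (SD, n = 3) with HCD, a log2 fold change of -1.13 with a standard error of 0.16 and a 95% interval of -1.49 to -0.76. The adjusted p was 0.0136 in edgeR's quasi-likelihood test, and the exact two-sided permutation test gave p = 0.1, the smallest that 3 livers against 3 allow. The call was lost without RD replicate 1 (adjusted p = 0.0903, edgeR) and without RD replicate 2 (adjusted p = 0.0748, edgeR), with fewer samples in each fit, while the log2 fold change stayed between -1.21 and -1.01 whichever liver was left out.

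Pdia5 encodes an isomerase of the same family. It is on the minus strand of chromosome 16 of GRCm38, from 35397312 to 35490873 (ENSMUSG00000022844). The 3 RD livers had 78.2, 83.0 and 102 CPM of Pdia5 RNA, and the 3 HCD livers had 43.0, 55.0 and 46.6 CPM. The groups did not overlap here either, and RD replicate 3 was the highest. Means were 87.8 ± 12.8 CPM (SD, n = 3) with RD and 48.2 ± 6.16 CPM (SD, n = 3) with HCD. The log2 fold change was -0.87 with a standard error of 0.15 and a 95% interval of -1.22 to -0.51, and the adjusted p was 0.0282 in edgeR's test. The call was lost in edgeR without RD replicate 1 (adjusted p = 0.103), RD replicate 2 (0.119), RD replicate 3 (0.0787), HCD replicate 1 (0.0548) or HCD replicate 3 (0.0847). Over all 6 fits that left out a liver, the log2 fold change was -0.98 to -0.74.

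The promoters of these 2 genes are shown with those of Pdia6 and Ero1lb, because the last pair hold a full ER stress response element (ERSE). The letters are the 250 bases before the RefSeq transcript start on GRCm38.p6, read 5′ to 3′ on the gene's strand. Capitals mark CCAAT and CCACG on either strand, and adjacent marks can join.
Pdia4 promoter, chr6:47813513-47813762, minus strand: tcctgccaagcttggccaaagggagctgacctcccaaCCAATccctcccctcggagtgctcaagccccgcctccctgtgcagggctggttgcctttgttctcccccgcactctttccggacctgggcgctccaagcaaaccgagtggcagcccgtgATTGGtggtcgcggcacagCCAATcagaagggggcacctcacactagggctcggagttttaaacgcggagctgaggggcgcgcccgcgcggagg
Pdia5 promoter, chr16:35490874-35491123, minus strand: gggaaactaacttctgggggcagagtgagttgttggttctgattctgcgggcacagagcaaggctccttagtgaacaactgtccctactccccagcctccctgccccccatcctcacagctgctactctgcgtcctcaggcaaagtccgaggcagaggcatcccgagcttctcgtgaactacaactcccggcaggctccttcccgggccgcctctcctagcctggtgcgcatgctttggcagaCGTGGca
Pdia6 promoter, chr12:17266339-17266588, plus strand: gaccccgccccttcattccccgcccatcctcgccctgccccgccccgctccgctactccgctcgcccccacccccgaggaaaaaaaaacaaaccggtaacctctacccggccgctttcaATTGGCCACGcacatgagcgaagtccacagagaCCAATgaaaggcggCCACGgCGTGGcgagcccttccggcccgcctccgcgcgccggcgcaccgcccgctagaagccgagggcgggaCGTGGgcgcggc
Ero1lb promoter, chr13:12565633-12565882, plus strand: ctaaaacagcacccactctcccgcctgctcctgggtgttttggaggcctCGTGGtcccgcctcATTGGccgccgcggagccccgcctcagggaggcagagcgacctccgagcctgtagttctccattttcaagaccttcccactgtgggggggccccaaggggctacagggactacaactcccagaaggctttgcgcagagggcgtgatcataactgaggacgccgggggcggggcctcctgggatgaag
The ERSE was searched as CCAAT and CCACG with 9 bases of any kind between them, on both strands. It was found in 2 of the 8 members that RefSeq promoters were matched to, in Pdia6 at 98 to 80 bases before the start and in Ero1lb at 201 to 183 bases before it on the opposite strand, and in 0.113% of 32851 promoters. In the Pdia4 window CCAAT was found at 213 and 75 bases before the start and reversed at 94, with no CCACG, and in the Pdia5 window CCACG was found reversed at 7 bases. CCAAT alone is in 33.8% of promoters and CCACG alone in 28.3%. The shorter UPR element TGACGTGG, whose end overlaps the reverse of CCACG, was found in 1 of the 3 promoters of Txndc5 and in 0.563% of all promoters. ERSE-II, searched as ATTGG and CCACG 1 base apart, was in none of the members' windows and in 0.0304% of all. These matches describe the letters of the windows. The 2 genes that fell are not the 2 with an exact ERSE in these windows. Elements with a mismatch, or outside the 250 bases, were not searched, and control by the UPR was not tested.

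Pdia6 and Pdia3 were lower on average with HCD without being called. Pdia6 encodes an isomerase that binds Hspa5 and lies on the plus strand of chromosome 12, from 17266545 to 17284770. Its RNA was 392, 411 and 358 CPM with RD and 180, 332 and 345 CPM with HCD. The groups did not overlap, but only narrowly, since RD replicate 3 and HCD replicate 3 were close. With Pdia4 and Pdia5, 3 of the 9 genes had non-overlapping diets with HCD lower, against 13.7% of all genes tested. The log2 fold change of Pdia6 was -0.44 (95% interval -0.99 to 0.11, adjusted p = 0.341, edgeR). The values of HCD replicate 1 moved it: without that liver it was -0.19.

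Pdia3 encodes the isomerase that works on glycoproteins with calnexin and calreticulin. It is on the plus strand of chromosome 2, from 121413775 to 121438687. Pdia3 RNA was 662, 609 and 595 CPM with RD and 330, 526 and 645 CPM with HCD. HCD replicate 3 lay within the RD values and HCD replicate 1 far below them. The log2 fold change was -0.31 (95% interval -0.85 to 0.22, adjusted p = 0.484, edgeR), with -0.087 without HCD replicate 1 and -0.55 without HCD replicate 3.

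P4hb, Txndc5 and Erp29 differed between the diets by less than the spread between livers. P4hb, on chromosome 11 from 120560298 to 120573253 (minus strand), encodes the classical protein disulfide isomerase, which is also the beta subunit of prolyl 4-hydroxylase and of the microsomal triglyceride transfer protein. It was 1695, 1569 and 1377 CPM with RD and 1361, 1532 and 1595 CPM with HCD. The diets overlapped throughout, and the log2 fold change was -0.048 (95% interval -0.42 to 0.33, adjusted p = 0.896, edgeR). The interval excludes a fall as large as that estimated for Pdia4 or Pdia5.

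Txndc5 encodes a thioredoxin-domain isomerase, on chromosome 13 from 38500079 to 38528824 (minus strand). It had 214, 275 and 222 CPM with RD and 175, 247 and 232 CPM with HCD, and these overlapped (log2 fold change -0.12, 95% interval -0.53 to 0.29, adjusted p = 0.742, edgeR). Erp29 encodes a relative of the family that lacks a redox-active cysteine pair, on chromosome 5 from 121428590 to 121452506 (minus strand). It had 49.4, 59.3 and 46.6 CPM with RD and 42.0, 58.0 and 52.8 CPM with HCD. Its diets overlapped as well (log2 fold change -0.024, 95% interval -0.40 to 0.35, adjusted p = 0.950, edgeR), and its sign changes with the scaling, being positive with upper-quartile factors and with a correction of the trend with gene length.

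Erp44 and Ero1lb act at the oxidase step. Erp44 encodes a protein that holds ERO1 oxidases and peroxiredoxin 4 back in the early secretory pathway, on chromosome 4 from 48193323 to 48279558 (minus strand). It was the one gene of the 9 with a log2 fold change above 0. Erp44 RNA was 87.0, 91.7 and 89.4 CPM with RD and 85.5, 121 and 141 CPM with HCD. The RD livers were tightly grouped, and HCD replicate 1 lay just below them while the other 2 HCD livers lay above. The log2 fold change was 0.37 (95% interval -0.042 to 0.79, adjusted p = 0.284, edgeR), 0.55 without HCD replicate 1 (adjusted p = 0.0740, edgeR) and 0.20 without HCD replicate 3. Ero1lb encodes the oxidase ERO1 beta, known for its high level in the pancreas, on chromosome 13 from 12565874 to 12611396 (plus strand). It varied most within a diet, at 123, 173 and 77.2 CPM with RD and 51.4, 137 and 107 CPM with HCD. The groups overlapped, and the log2 fold change was -0.34 (95% interval -1.20 to 0.52, adjusted p = 0.652, edgeR). Ero1lb moved widely with single livers, to -0.026 without HCD replicate 1, -0.031 without RD replicate 2, -0.59 without RD replicate 3 and -0.66 without HCD replicate 2.

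**Figure D2:**
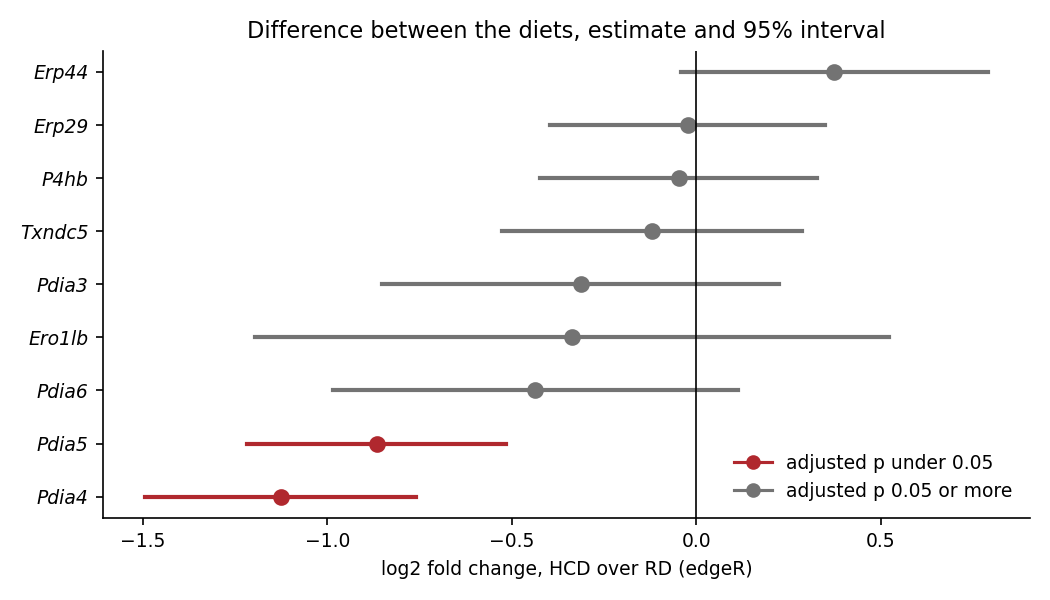
Log2 fold change of HCD over RD for each of the 9 genes, with its 95% interval from edgeR's quasi-likelihood fit, on a linear axis where 0 means no difference. The intervals of Pdia4 (-1.49 to -0.76) and Pdia5 (-1.22 to -0.51) lie below 0, and the other 7 span 0.

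HCD replicate 1 had the lowest CPM of the 6 livers for 9 of the 9 genes, against 19.4% of all genes tested. With library sizes alone it was lowest for 6 of the 9, and by FPKM for 8 of the 9. Within HCD, the highest liver was 1.95 times the lowest for Pdia3, 1.91 times for Pdia6 and 2.66 times for Ero1lb, against 1.11, 1.15 and 2.24 times within RD. For P4hb and Pdia5 the spread was smaller within HCD, at 1.17 against 1.23 times and 1.28 against 1.31 times. Without HCD replicate 1 Pdia4 kept its call (log2 fold change -1.01, adjusted p = 0.017, edgeR). Summed Kupffer cell markers were 305 CPM in HCD replicate 1, 270 and 130 CPM in HCD replicates 2 and 3, and 90.4 to 162 CPM with RD. Summed stellate cell markers were 559 CPM in HCD replicate 1, 325 and 447 CPM in the other HCD livers, and 307 to 340 CPM with RD, and endothelial markers were 143, 86.0 and 101 CPM with HCD and 75.1 to 128 CPM with RD. Cholangiocyte markers were not high in HCD replicate 1, at 64.5 CPM against 72.0 and 98.1 CPM in the other HCD livers and 37.4 to 91.9 CPM with RD. None of these marker genes was called by edgeR in either direction. Their part in the low values was not tested.

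**Figure D3:**
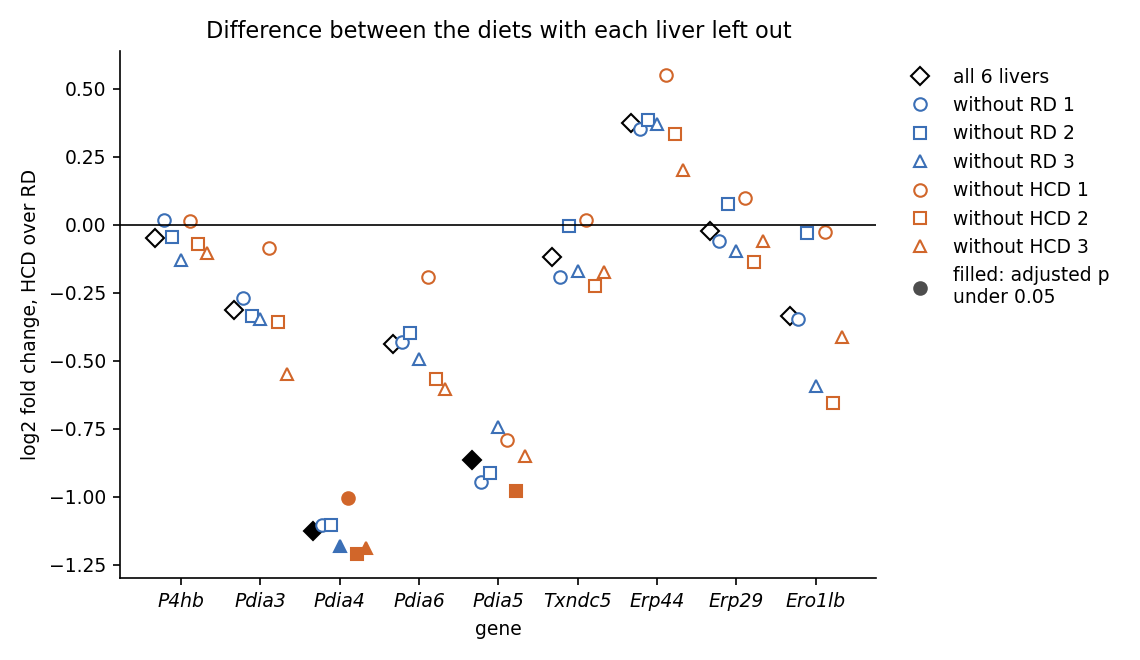
Log2 fold change of HCD over RD for each gene when each of the 6 livers was left out in turn, compared with the fit of all 6. Pdia4 stays between -1.21 and -1.01 and Pdia5 between -0.98 and -0.74, while Pdia3 and Pdia6 move toward 0 without HCD replicate 1.

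The genes differed widely in level. Levels are compared between genes as FPKM, which the authors scaled by gene length. P4hb was highest at 789 ± 71.0 FPKM (SD, n = 3) with RD, then Pdia3 at 289 ± 15.2, Pdia4 at 249 ± 11.4, Pdia6 at 151 ± 7.26, Txndc5 at 77.0 ± 9.61, Pdia5 at 46.4 ± 7.68, Erp44 at 38.2 ± 1.07, Ero1lb at 27.2 ± 9.99 and Erp29 at 8.34 ± 0.917 FPKM. Among neighbours in that order, only Erp44 and Ero1lb overlapped. With HCD, Erp44 was above Pdia5 at 50.3 ± 12.1 against 25.8 ± 2.70 FPKM, Pdia4 was at 116 ± 16.2 and Pdia6 at 113 ± 35.3 FPKM. With HCD the overlapping neighbours were Pdia4 and Pdia6, Pdia6 and Txndc5, Txndc5 and Erp44, and Pdia5 and Ero1lb. Erp29 is divided by an exon length of 9060 bases, of which 2210 also belong to Naa25 on the opposite strand, and the strand of counting was not stated.

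The make-up of the family followed from these levels. P4hb gave 45.7% to 49.0% of the summed FPKM of the 9 genes in the RD livers and 52.1% to 60.6% in the HCD livers. The highest P4hb share, 60.6%, was HCD replicate 1, and the other HCD livers were at 52.7% and 52.1%. Pdia4 gave 14.6% to 15.0% with RD and 7.82% to 8.49% with HCD. Erp44 gave 2.10% to 2.48% with RD and 3.19% to 3.85% with HCD, and Pdia5 gave 2.33% to 3.51% and 1.57% to 1.98%. These shares are parts of a whole and move with each other. The sum without P4hb was 855 to 906 FPKM in the RD livers. It was 467 FPKM in HCD replicate 1 and 694 and 769 FPKM in the other HCD livers. Erp44, whose share was larger in each HCD liver, overlapped between the diets in its own level. The larger P4hb share stood beside nearly the same P4hb level, at 789 ± 71.0 FPKM with RD and 776 ± 59.4 FPKM with HCD (SD, n = 3 each). Relative to P4hb FPKM in the same liver, Pdia4 was at 29.8%, 32.3% and 32.8% with RD and 13.5%, 16.1% and 15.0% with HCD, a ratio that no library scaling can move. Pdia5 was at 4.77%, 5.46% and 7.67% of P4hb with RD and 3.26%, 3.71% and 3.02% with HCD. Of 8 such ratios, those of Pdia4, Pdia5 and Pdia6 were lower with HCD without overlap, against 9.87% of all other genes tested by the same ratio (exact two-sided permutation p = 0.1 each, 0.267 after Benjamini-Hochberg adjustment over the 8).

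**Figure D4:**
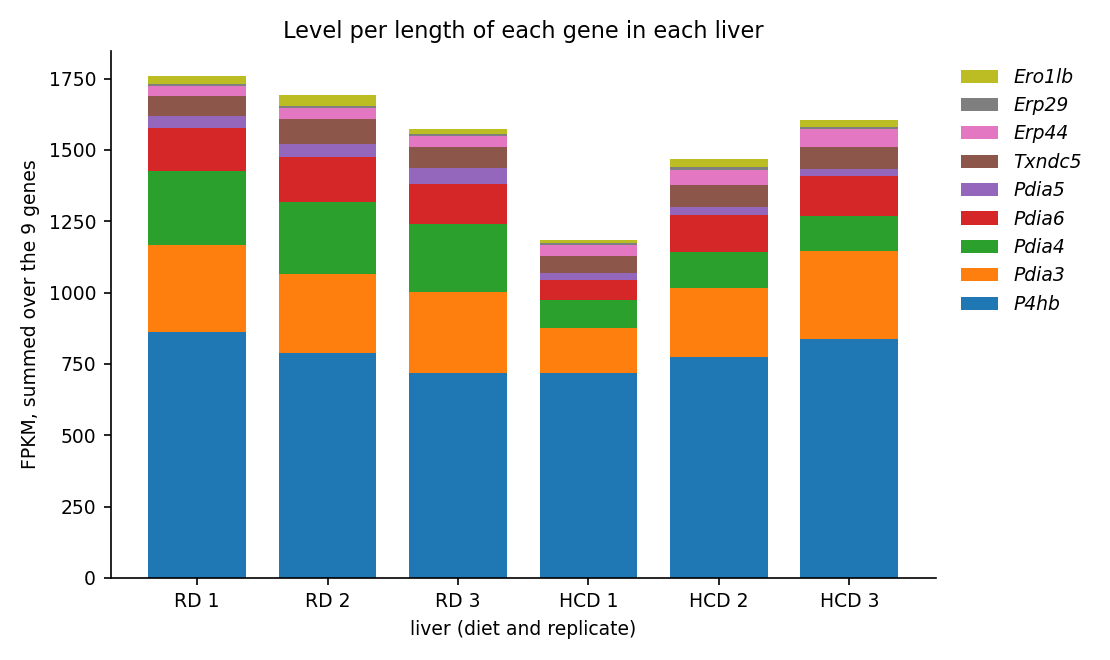
FPKM of each of the 9 genes, stacked for each of the 6 livers, so that the height of a bar is the summed FPKM. Bar heights differ, from 1184 FPKM in HCD replicate 1 to 1760 FPKM in RD replicate 1. As a share of its bar, P4hb is 45.7% to 49.0% in the RD livers and 52.1% to 60.6% in the HCD livers. The Pdia4 band is narrower in each HCD liver.

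Other genes of ER thiol chemistry were taken from a list of 26, of which 23 were in the tables and 21 were tested. Of these, 4 fell and 0 rose (unadjusted p under 0.05: 6 lower, 2 higher, edgeR; DESeq2: 5 lower, 0 higher), and their median log2 fold change was 0.015. Among all genes the shares were 1.32% lower and 1.95% higher, 9.81% and 11.1% at an unadjusted p under 0.05, and 3.09% lower in DESeq2, so the 2 of 21 higher at an unadjusted p are near the background. Tmx4, a membrane thioredoxin-related protein, was 28.4 ± 1.58 CPM with RD and 12.9 ± 2.02 CPM with HCD (SD, n = 3 each; log2 fold change -1.14, adjusted p = 0.0130, edgeR). Creld2, a known ER stress gene, was 129 ± 41.4 and 31.7 ± 14.7 CPM (-2.02, adjusted p = 0.0282, edgeR). Txndc11 (-0.80, adjusted p = 0.0258, edgeR) and Creld1 (-0.79, adjusted p = 0.0330, edgeR) also fell. These 4 calls were all lost without RD replicate 1 and without RD replicate 2. The count was 1 without HCD replicate 3, 2 without RD replicate 3 and 4 without HCD replicate 1. The next 3 and the partners Calr and Mttp were singled out for their roles after their values had been seen. Ero1l, the ERO1 alpha oxidase, had 19.3, 23.7 and 19.7 CPM with RD and 15.0, 18.0 and 10.2 CPM with HCD, without a call (log2 fold change -0.53, adjusted p = 0.211, edgeR). Qsox1, which makes disulfides without an isomerase, was not called either (-0.58, adjusted p = 0.110, edgeR), nor was Prdx4, the peroxiredoxin that uses ERO1 hydrogen peroxide (0.39, adjusted p = 0.309, edgeR).

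Of 11 tested partners of these proteins, 1 fell and 0 rose (unadjusted p under 0.05: 4 lower, 0 higher, edgeR; DESeq2: 3 lower, 0 higher), with a median log2 fold change of -0.39. It was Hspa5, the ER chaperone BiP, at 1741 ± 409 CPM with RD and 703 ± 178 CPM with HCD (SD, n = 3 each; log2 fold change -1.31, adjusted p = 0.0354, edgeR). Calr, which brings glycoproteins to Pdia3, was not called (-0.63, adjusted p = 0.148, edgeR), and neither was Mttp, the P4hb partner that loads lipid onto lipoproteins (-0.081, adjusted p = 0.798, edgeR). Of 18 ER chaperone and UPR genes, which include Hspa5, 5 fell and 0 rose (unadjusted p under 0.05: 12 lower, 0 higher, edgeR; DESeq2: 10 lower, 0 higher), and the median was -0.81. The shares among all genes given for the thiol list apply to both lists. The other 4 were Syvn1 (-1.71) and Sel1l (-1.0), of ER-associated degradation, and the chaperones Hsp90b1 (-0.97) and Hyou1 (-1.65). No gene of either list was called without RD replicate 1, RD replicate 2 or HCD replicate 3, and without RD replicate 3 the chaperone and UPR count was 3. Without HCD replicate 1 the counts were 1 partner gene and 4 chaperone and UPR genes. All genes called lower were 21 without RD replicate 1, against 173 with all 6 livers. Several genes of these lists are named in the paper from the same livers, so the lists are not independent evidence of direction.

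**Figure D5:**
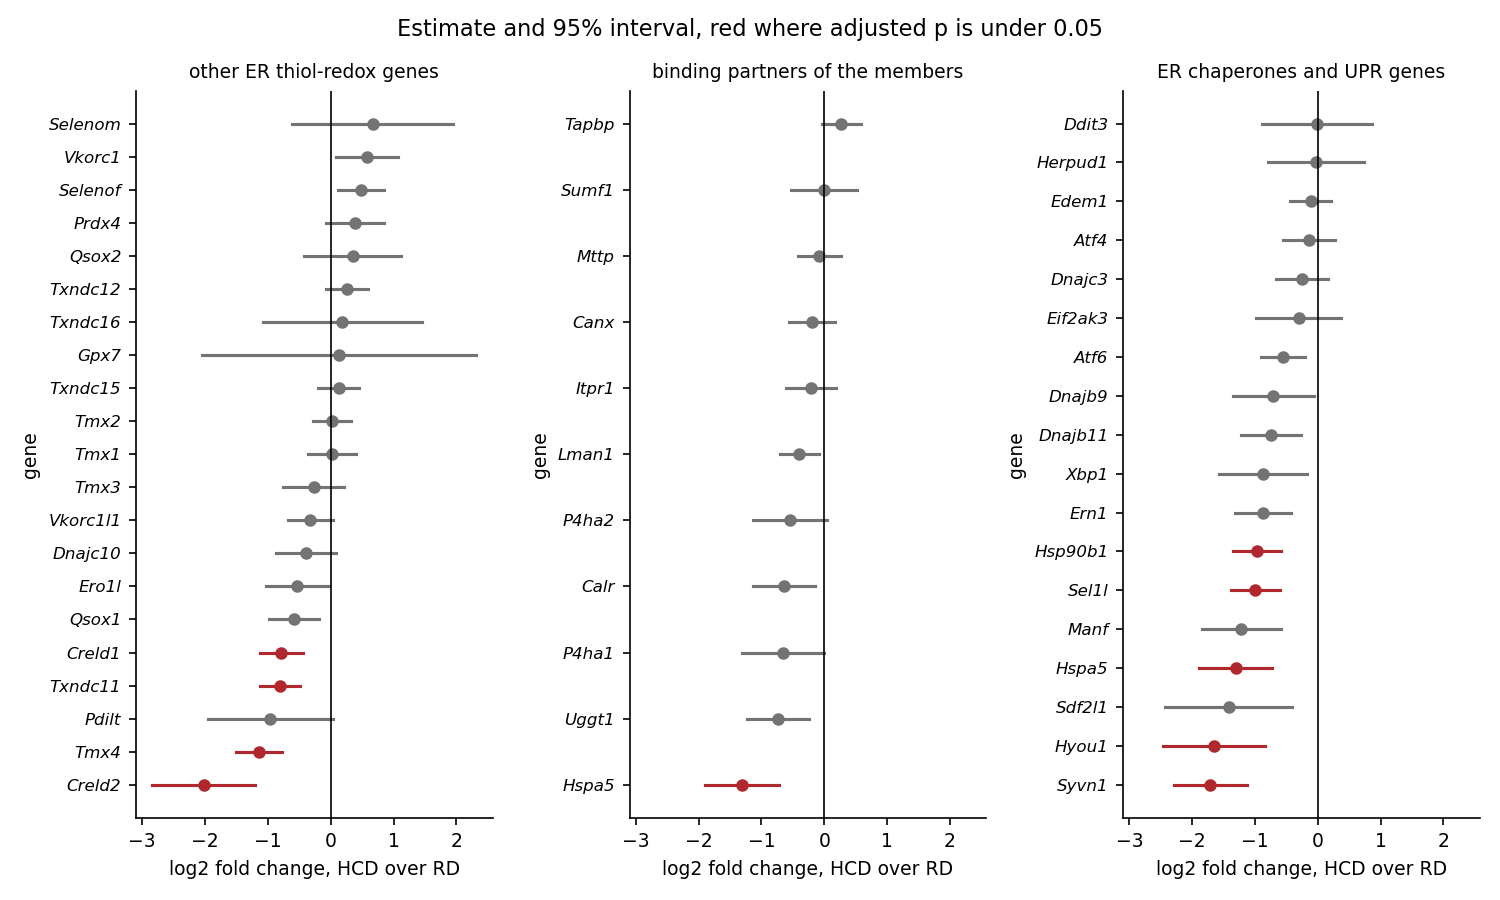
Log2 fold change of HCD over RD for the tested genes of each list, 1 point per gene. The medians, which are not drawn, are 0.015 for other ER thiol genes, -0.39 for partners and -0.81 for chaperone and UPR genes. For the 9 isomerases and oxidases, which have no panel here, the median is -0.31.

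Profiles over the 6 livers were compared by the root mean square difference of log2 CPM after each gene was centred, among genes averaging 5 CPM or more. The 3 genes nearest to the median profile of the 9 were Aars (0.0352 log2 units), Eif4g3 (0.0413) and Dpagt1 (0.0618). The gene nearest to Pdia4 was Hsp90b1, at 0.0895 log2 units, and to Pdia5 it was Dnajb2 at 0.0782. The nearest to P4hb was Cox15 (0.0189), to Pdia3 Hltf (0.0531), to Pdia6 Dpy19l1 (0.0736), to Txndc5 Cdk16 (0.0516), to Erp29 Rbm27 (0.0319) and to Erp44 Mcm9 (0.0406). Ero1lb had the most distant nearest gene, Hapln4 at 0.187. Among the 9 genes the closest pair was Txndc5 and Erp29 at 0.0663, followed by Pdia3 and Pdia6 at 0.114, while Pdia4 and Pdia5 were 0.234 apart. These distances describe 6 livers and carry no test.

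Reads of some members could be shared with other genes. Exons on the opposite strand overlap those of Txndc5 (224 bases with Bmp6, 311 with Gm31834), Pdia6 (50 bases with Atp6v1c2) and Pdia3 (18 bases with Catsper2), and Ero1lb has a pseudogene copy, Gm18562, that is 98.05% identical over 921 bases and had at most 3 counts in a liver. For Pdia4 the annotation shows an overlap of 14 bases with Mir704 on the same strand, and for Pdia5 no shared exon bases. Markers of the exocrine pancreas, where Ero1lb and isomerases are abundant, summed to 20.2 to 26.8 CPM with RD and 7.53 to 23.6 CPM with HCD from the 2 of 6 genes in the tables. The lowest of these, 7.53 CPM, was HCD replicate 1, where the 9 genes were also lowest, and the other HCD livers were at 23.6 and 22.9 CPM. That sum is nearly all Cela1 (7.33 CPM in HCD replicate 1 and 22.8 and 22.4 CPM in the other HCD livers), while Cela2a was at 0.202 CPM there and at 0.209 to 0.625 CPM in the RD livers. B and plasma cell markers, another secretory lineage, summed to 7.79 to 10.1 CPM with RD and 8.55 to 17.6 CPM with HCD. The edgeR test covered 1 pancreas marker and 2 of the 6 B and plasma cell markers and called none, and the part of such cells in the results was not tested.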

How the data were processed

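Liver RNA-seq of 3 RD and 3 HCD mice was used, grouped by the sample labels. The authors deposited read counts per gene, without normalization, and FPKM, for which the deposited tables do not state the library total. The authors also deposited their own log2 fold changes and p-values, which were not used. The submitters' processing notes name STAR, HTSeq, DESeq2, edgeR and GRCm39, without roles. The library kit, strand and annotation are not given in the sources used here. The tables carry no coordinates, so positions and lengths come from GENCODE M21 on GRCm38 by Ensembl ID. Lengths implied by counts and FPKM equalled M21 exon lengths within 0.1% for 95.0% to 95.1% of the 11382 to 12375 genes per liver with at least 20 counts.

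Counts were tested in R 4.3.3 with edgeR 4.0.16 (filterByExpr, TMM, glmQLFit and glmQLFTest of diet, Benjamini-Hochberg over 13105 genes). The script was tested on simulated counts. Standard errors are the log2 fold change over the square root of F. Permutation tests were exact and two-sided over 20 assignments. With 13771630 to 23129576 counts per liver, 3 counts correspond to 0.130 to 0.218 CPM, which covers counting error only. Alternatives used DESeq2 1.42.0, limma 3.58.1 on log2 of FPKM plus 1 or 0.1, other scalings and filters, a correction of the trend with gene length (loess, span 0.5), a replicate block and each liver left out. Copies were sought with minimap2 2.31 (at least 200 bases, 90% identity). Promoters are from RefSeq on GRCm38.p6. Erp29 was not matched.

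The members and gene lists were chosen with earlier results of these data known. Named genes are all 9 members, the called genes of each other list, the 3 genes nearest to the members' median profile and the gene nearest to each member. Ero1l, Qsox1, Prdx4, Calr and Mttp were added after their values were seen.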

Additional observations from a re-analysis of the deposited data

How the results depend on the processing

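Of the 9 genes, 2 were called lower, and 2 with RLE or upper-quartile factors, library sizes alone, either filter, DESeq2, limma on FPKM or the length-trend correction. The count was 0 at an adjusted p under 0.01 and 0 to 2 when each liver was left out (0 without RD replicate 1 or RD replicate 2, 1 without RD replicate 3, HCD replicate 1 or HCD replicate 3). For the other ER thiol genes the count of 4 was 0 at an adjusted p under 0.01 and 0 to 4 when each liver was left out. Leaving out each liver in turn, run after seeing the data for the other lists, gave 0 to 1 partner genes (1 with all livers) and 0 to 7 chaperone and UPR genes (5 with all livers). No member was called higher in any fit. The labels do not say whether equal replicate numbers pair the livers. Deviations of same-numbered livers correlated at -0.0761, 0.0879 and -0.0413, which cannot settle whether livers were paired. The replicate block gave 1 member and 2 other thiol genes, and the replicate block with the length-trend correction gave 1 and 1. In these fits Pdia4 kept its call (adjusted p = 0.0489 and 0.0470, edgeR) and Pdia5 lost it (0.0591 and 0.0567, edgeR). All genes called lower and higher were 173 and 255 in edgeR, 440 and 552 in DESeq2, 285 and 364 without a filter, 113 and 138 with the length-trend correction, 65 and 71 with the block, and 49 and 47 with both.

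The median log2 fold change of the 9 was -0.31, and -0.41 to -0.026 when each liver was left out, with -0.026 without HCD replicate 1 and -0.045 without RD replicate 2. The sign of Erp29 reversed to 0.0085 with upper-quartile factors, 0.11 with the length-trend correction, 0.097 with that and the replicate block, 0.078 without RD replicate 2 and 0.099 without HCD replicate 1. P4hb reversed to 0.019 without RD replicate 1 and to 0.015 without HCD replicate 1, which also took Txndc5 to 0.016. When each liver was left out, the lowest values were -0.14 for Erp29, -0.13 for P4hb and -0.23 for Txndc5. The cause of these changes was not tested. With 3 livers a diet, the spread between livers limits what can be called.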
